A study of Plutella xylostella with 12 samples.

Results

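The miR-279 family was followed in *Plutella xylostella*, the diamondback moth, in small RNA libraries from larvae exposed to the diamide insecticide chlorantraniliprole. Its members were taken by name as the 5 listed mature microRNAs (miRNAs) of copies a to d: pxy-miR-279a-3p, pxy-miR-279a-5p, pxy-miR-279b-3p, pxy-mir-279c-3p and pxy-mir-279d-3p, of 105 names in all. The libraries came from whole 3rd instar larvae of Waite, an insecticide-susceptible strain by its labels, and only larvae that survived exposure were collected. Every group was exposed: 0.01 ppm (low dose) for 6 h, 0.1 ppm (high dose) for 6 h, 0.01 ppm for 24 h and 0.1 ppm for 24 h, with 3 biological replicates each and 12 libraries in total. Unexposed larvae were not analysed here, so each comparison is between doses or between times. The sources used here do not say whether a replicate was 1 larva or a pool.

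A miRNA guides the silencing complex to messenger RNAs through its seed, the short stretch near its 5′ end, so copies that share a seed can act on overlapping targets. The 2 arms of a precursor give the 5p and 3p products, and in the miR-279 family of insects the 3p product is the one that usually accumulates. In *Drosophila* miR-279 limits the formation of neurons that sense carbon dioxide, tempers JAK/STAT signalling in migrating ovarian cells and takes part in daily rest and activity rhythms. Those roles are known for the fly gene and have not been tied here to any of the 4 moth copies. In the fly, miR-996 and miR-286 carry the same seed, and no name of either was listed in these libraries. Sequences of the moth copies were not at hand, so shared or differing bases are not described.

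The shallowest library held 10714 counts (replicate 2 of the low dose, 6 h) and the deepest 41214 (replicate 3 of the low dose, 24 h). Each file gives several rows per miRNA name and no row under 5 counts, so a name that a library does not list is not a measured 0. Marker families were checked for the whole body label. The muscle miRNA pxy-mir-1-3p was listed in all 12 libraries at 0.0457% to 0.176% of counts, whereas no name of the muscle family miR-133 was listed. Both arms of miR-281, known from the midgut and Malpighian tubules of other insects, summed to 9.99% to 15.1%. No name of the nervous tissue families miR-124, miR-7 and miR-219 was listed.

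Together the members held 18557 of 356627 counts, and the family's share of a library lay between 4.37% and 5.85%. The 4 members of the 3p arm were listed in all 12 libraries. The 5p product of copy a was listed once, with 5 counts in low-dose replicate 3 at 6 h, against 228 counts of its 3p partner there. It was 0.44% of the family's counts in that library (95% Clopper-Pearson interval 0.143% to 1.03%, covering counting error only) and it could not be tested. For copies b, c and d only the 3p product is among the names.

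Copy b was the main product of the family. On average over the 12 libraries pxy-miR-279b-3p made up 60.7% ± 4.14 (SD, n = 12) of the family's counts, pxy-miR-279a-3p 19.6% ± 2.42, pxy-mir-279c-3p 12.8% ± 1.67 and pxy-mir-279d-3p 6.94% ± 1.47. The order b, a, c, d held in 12 of 12 libraries, so in no library did neighbours in the order change places. Counts of b were 1.22 to 2.05 times the counts of the other members added together. Among all names of a library b ranked 7th to 10th by count, a 15th to 20th, c 20th to 23rd and d 25th to 39th. These are counts of different RNAs, with no correction for how readily each is captured in a library, and how reads that match more than 1 copy were assigned is not stated.

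**Figure D1:**
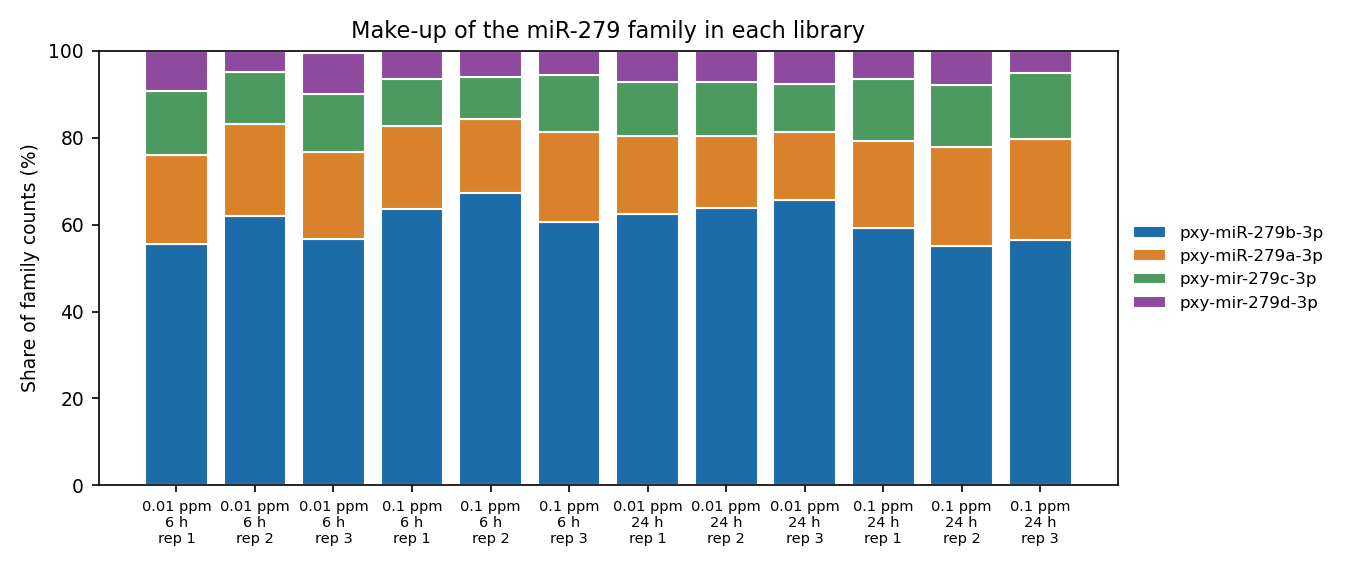
Share of the family's counts (y axis, %) held by each 3p member in each of the 12 libraries (x axis, grouped by dose and time). Copy b is the largest segment everywhere, between 55.0% and 67.2%, and copy d the smallest, between 4.80% and 9.43%; the 5 counts of pxy-miR-279a-5p are not drawn.

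Between groups, the share of copy b moved by the most percentage points. After 6 h its share of family counts was 58.1% ± 3.55 (SD, n = 3) in low-dose larvae, against 63.8% ± 3.35 in high-dose larvae. After 24 h it was 64.0% ± 1.69 in low-dose larvae, against 56.9% ± 2.17 in high-dose larvae, where the highest high-dose library, 59.3%, lay below the lowest low-dose library, 62.4%. The share of copy a had the opposite order at 24 h, with 16.7% ± 1.29 in low-dose and 22.0% ± 1.79 in high-dose larvae. So did that of c, with 11.2% to 12.5% in low-dose and 14.2% to 15.1% in high-dose libraries. The share of d overlapped, with 7.08% to 7.54% and 5.18% to 7.96%. Shares within the family are tied, so a lower share of b means a higher share of the other members together. Levels of a itself overlapped between doses at 24 h and did not pass, as given below. The whole family took 5.34% to 5.53% of the counts in the low-dose libraries at 24 h and 4.37% to 4.68% in the high-dose libraries, which did not overlap. After 6 h it took 5.44% to 5.85% in low-dose and 5.22% to 5.42% in high-dose libraries, which narrowly did not overlap either. Scaled as in the next paragraph, the mean family total at 6 h had the other order, with 53558 CPM in low-dose and 55522 CPM in high-dose larvae. How many single miRNAs were without overlap in shares of the library was not counted. These shares are descriptions and were not tested.

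Levels below are CPM, counts scaled to a common library size with TMM factors, which assume that most miRNAs do not differ. After 24 h, pxy-miR-279b-3p stood at 37035, 38258 and 38580 CPM in low-dose replicates 1 to 3. It stood at 27387, 21953 and 23322 CPM in the high-dose replicates. All 3 high-dose libraries were below all 3 low-dose libraries. The mean of 24221 ± 2826 CPM (SD, n = 3) in the high-dose group was 1.57-fold below that of 37958 ± 815 CPM in the low-dose group. The log2 fold change was -0.65 ± 0.11 SE by edgeR's quasi-likelihood test (adjusted p = 0.000437 over all 73 tested miRNAs). In whole larvae, fewer cells that make a miRNA and less of it per cell cannot be told apart.

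The least abundant copy, pxy-mir-279d-3p, was also lower at the high dose after 24 h. In the low-dose replicates it stood at 4315, 4236 and 4423 CPM, from 149, 161 and 166 counts. In the high-dose replicates it stood at 2997, 3174 and 2143 CPM, from 87, 120 and 96 counts. The groups did not overlap, and high-dose replicate 3 was the lowest. The mean fell from 4325 ± 93.7 to 2771 ± 552 CPM (-0.65 ± 0.18, adjusted p = 0.0181, edgeR). This call held in 4 of the 12 fits that each left out 1 library: those omitting, of the 6 h libraries, replicate 2 of the low dose or replicate 1 or 2 of the high dose, and, of the 24 h libraries, replicate 2 of the high dose. Without high-dose replicate 3 at 24 h the log2 fold change was -0.37. The call was also lost in DESeq2 (-0.54, adjusted p = 0.0824) and with library totals (-0.43, adjusted p = 0.171, edgeR). That on copy b held in all 12 fits and with both of these, where the values of b too were nearer to no change than with TMM (-0.54 in DESeq2 and -0.43 with library totals).

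Copies a and c did not pass at 24 h. Levels of pxy-miR-279a-3p were 10714, 9867 and 9086 CPM in low-dose and 9232, 9099 and 9641 CPM in high-dose replicates, and the groups overlapped (log2 fold change -0.08 ± 0.12, adjusted p = 0.729, edgeR). Levels of pxy-mir-279c-3p were 7297, 7499 and 6581 CPM in low-dose and 6580, 5660 and 6249 CPM in high-dose replicates. The lowest low-dose and the highest high-dose library of c were nearly equal, and the comparison did not pass (-0.21 ± 0.13, adjusted p = 0.311, edgeR). With 1 library left out c ran from -0.19 to -0.03. The sign of neither a nor c held across scalings: with library totals a was at 0.14 and c at 0.01, and with upper quartile factors at 0.31 and 0.18.

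Thus 2 of the 4 tested members were lower at the high dose after 24 h and none was higher, where 9.59% of the 73 tested miRNAs were called lower and 6.85% higher (16.4% in all). In CPM, groups that did not overlap were found for 3 of the 4 members (b, d and, narrowly, c) and for 41.1% of all tested miRNAs. As shares of the library's counts the groups of c overlapped (0.599% to 0.692% in low-dose and 0.619% to 0.693% in high-dose libraries). The members' median log2 fold change was -0.43, beside -0.16 over all 73. That overall median depended on the scaling, moving to 0.06 with library totals and to 0.21 with upper quartile factors, with which neither b (-0.27, adjusted p = 0.2, edgeR) nor d (-0.28, adjusted p = 0.374, edgeR) passed. Relative to the median of all tested miRNAs, b lay at -0.49 with TMM, with DESeq2 and with library totals and at -0.48 with upper quartile factors. On that measure d lay at -0.49 under each of the 5 scalings, a at 0.08 to 0.10 and c at -0.05 to -0.03. A change of scaling shifts all miRNAs nearly alike, and subtracting the median removes that shift. The agreement between scalings was therefore built in and is no check of the calls.

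**Figure D2:**
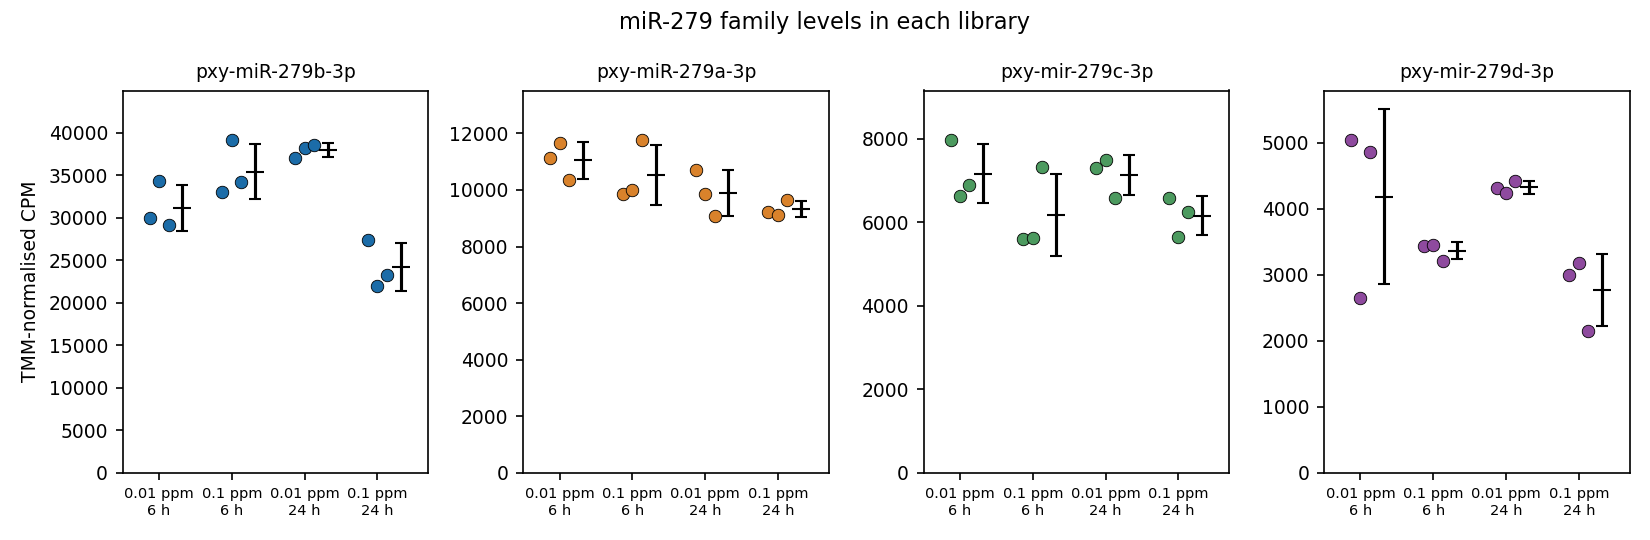
Levels of the 4 members of the 3p arm (y axes, TMM-normalised CPM, each from 0) in the 4 dose and time groups (x axis). Points are replicates 1 to 3 from left to right, and the bar beside them is the mean ± SD (n = 3); for copy b the high-dose libraries at 24 h, 21953 to 27387 CPM, lie below every other library.

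After 6 h no member passed between doses, and 1.37% of all tested miRNAs did. At an unadjusted p under 0.05, 17.8% of all tested miRNAs did and still no member. The doses were without overlap at 6 h for 15.1% of all tested miRNAs and for no member. Levels of pxy-miR-279b-3p were 30015, 34299 and 29185 CPM in low-dose and 33006, 39130 and 34202 CPM in high-dose replicates, with overlapping groups (log2 fold change 0.19 ± 0.12, adjusted p = 0.448, edgeR). Of the 4 members b alone had a value above 0 with TMM factors, and a had one too with upper quartile factors (0.12). At the low dose pxy-mir-279d-3p was uneven, with 5038, 2653 and 4857 CPM. Its low value came from replicate 2, the shallowest library, with 28 counts in a single row, beside 167 and 107 counts in replicates 1 and 3. At the high dose it lay between 3213 and 3455 CPM (-0.38 ± 0.20, adjusted p = 0.343, edgeR), and the value ran from -0.49 without low-dose replicate 2 to -0.20 without low-dose replicate 1, with -0.25 without low-dose replicate 3. Members a (-0.06 ± 0.12) and c (-0.22 ± 0.14) had adjusted p = 0.892 and 0.455 (edgeR), and a ran from -0.19 to 0.04 with 1 library left out, the latter without low-dose replicate 2. In the same fits c ran from -0.41 without high-dose replicate 3 to -0.09 without low-dose replicate 1, and b from 0.11 without high-dose replicate 2 to 0.32 without low-dose replicate 2, at 6 h each.

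For copy b the difference between doses changed with time. Between 0.19 at 6 h and -0.65 at 24 h the difference of the log2 fold changes was -0.84 ± 0.16 SE (adjusted p = 0.00206, edgeR interaction contrast, 12 libraries). It was the sole member of the 4 to pass there, where 8.22% of all tested miRNAs passed and 5.48% were called lower. The call held in each of the 12 fits that left out 1 library (-0.87 to -0.71) and missed the threshold with upper quartile factors (-0.64, adjusted p = 0.0716, edgeR). The size of the contrast depended on the scaling, with -0.76 in DESeq2 and -0.50 with library totals. Relative to the median of all tested miRNAs it was -0.82 to -0.79 under the 5 scalings, an agreement that subtracting the median builds in. The same contrast was -0.27 ± 0.27 for d, 0.01 ± 0.19 for c and -0.02 ± 0.17 for a (adjusted p = 0.61, 1 and 1, edgeR), and the signs for a and d changed under other scalings. The value for d ran from -0.39 to -0.01 with 1 library left out, the latter without high-dose replicate 3 at 24 h.

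Averaged over both times, d fell at the high dose (-0.52 ± 0.14, adjusted p = 0.0143, edgeR), as 1 of 4 members, where 13.7% of all tested miRNAs were called and 9.59% were called lower. Copies b (-0.23 ± 0.08, adjusted p = 0.0666), c (-0.22 ± 0.10, adjusted p = 0.143) and a (-0.07 ± 0.08, adjusted p = 0.589) did not pass in edgeR, and with upper quartile factors these 3 were at 0.05, 0.07 and 0.21. With 1 library left out, b ran from -0.25 to -0.11, the weakest without low-dose replicate 2 at 6 h, and c from -0.29 to -0.09, the weakest without low-dose replicate 1 at 6 h. For b the average joined a value above 0 at 6 h and one below 0 at 24 h. The call on d was lost in 7 of 12 fits with 1 library omitted: of the 6 h libraries, replicate 1 or 3 of the low dose or replicate 3 of the high dose, and, of the 24 h libraries, any replicate of the low dose or replicate 3 of the high dose. Without high-dose replicate 3 at 6 h, c passed instead (-0.29, adjusted p = 0.0477, edgeR). DESeq2 did not call d (-0.44, adjusted p = 0.0565).

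Over time, the doses differed in what happened to copy b. Under the high dose its mean was 35446 ± 3246 CPM (SD, n = 3) at 6 h and 24221 ± 2826 CPM at 24 h, and it fell by a fitted 1.47-fold (log2 fold change -0.55 ± 0.12 SE, adjusted p = 0.00476, edgeR). In CPM the libraries of the 2 times did not overlap for 3 of the 4 members at this dose (b, a and d), beside 20.5% of all tested miRNAs. As shares of the library's counts a (0.930% to 1.13% at 6 h, 0.934% to 1.07% at 24 h) and d (0.308% to 0.345% and 0.238% to 0.347%) overlapped. At the low dose the mean of b was 31166 ± 2745 CPM at 6 h and 37958 ± 815 CPM at 24 h, and did not pass (0.29 ± 0.12, adjusted p = 0.0843, edgeR). There b was the 1 member of 4 without overlap, beside 35.6% of all tested miRNAs. The difference between these 2 changes is the same contrast as the one tested above. As a share of the library's counts b went from 3.42% ± 0.20 to 2.59% ± 0.18 at the high dose and from 3.26% ± 0.11 to 3.48% ± 0.08 at the low dose. The high-dose call held in all 12 fits that left out 1 library (-0.66 to -0.49) and was lost with upper quartile factors (-0.35, adjusted p = 0.155, edgeR).

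No other member passed between times. At the high dose 1 of 4 members was called lower, where 4.11% of all tested miRNAs were (6.85% called in all), at the low dose none, where 19.2% were called, and averaged over doses none, where 11% were. Averaged over doses the values were -0.17 ± 0.08 for a, -0.15 ± 0.14 for d, -0.13 ± 0.08 for b and -0.02 ± 0.10 for c (adjusted p = 0.22, 0.535, 0.304 and 0.984, edgeR). For the low dose alone, 28.8% of all tested miRNAs were at an unadjusted p under 0.05, among them b (unadjusted p = 0.0213, edgeR, a fit across all miRNAs). At an unadjusted p under 0.05 the average over doses had 26% of all tested miRNAs, none of them a member, and the sign of c changed with upper quartile factors (0.07). Means of pxy-miR-279a-3p were 11045 ± 657 and 9889 ± 814 CPM for the low dose at 6 h and 24 h, and 10528 ± 1063 and 9324 ± 283 CPM for the high dose. Those of pxy-mir-279c-3p were 7165 ± 704 and 7126 ± 482 CPM for the low dose, and 6181 ± 987 and 6163 ± 466 CPM for the high dose. Those of pxy-mir-279d-3p were 4182 ± 1328 and 4325 ± 93.7 CPM for the low dose, and 3367 ± 134 and 2771 ± 552 CPM for the high dose. At the high dose a lay at 9841 to 11753 CPM at 6 h and 9099 to 9641 CPM at 24 h (log2 fold change -0.18 ± 0.12), and d at 3213 to 3455 and 2143 to 3174 CPM (-0.29 ± 0.20), each with an adjusted p of 0.437 (edgeR). The value for a was 0.01 with upper quartile factors.

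**Figure D3:**
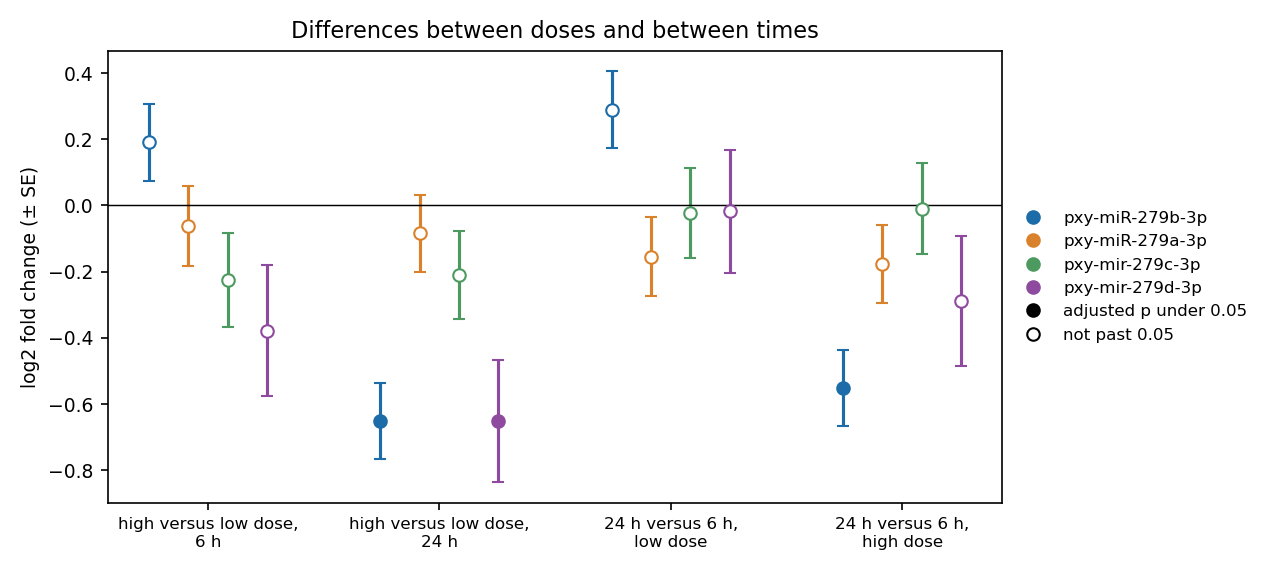
Log2 fold changes ± SE (y axis) of the 4 members of the 3p arm in the 2 dose and the 2 time comparisons (x axis), with TMM scaling. Filled points passed an adjusted p of 0.05: copies b and d between doses at 24 h, each at -0.65, and copy b between times at the high dose, at -0.55; with upper quartile factors none of these passed, and values of a and c changed sign between doses at 24 h.

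Because a ratio of 2 members within a library does not depend on how libraries are scaled, each 3p member was also set against pxy-miR-279a-3p. For each count of a, copy b had 2.82 counts (geometric mean over 3 libraries) in low-dose and 3.37 in high-dose larvae after 6 h, and 3.85 and 2.59 after 24 h. On the log2 scale the ratio of b to a was 1.79 to 2.09 in the low-dose libraries and 1.27 to 1.57 in the high-dose libraries at 24 h, with no overlap. The difference of means was -0.57, with exact permutation p = 0.1, two-sided, the smallest that 3 against 3 libraries allow (adjusted p = 0.315 over 18 tests of ratios). The ratio of d to a was also without overlap at 24 h, with a mean of 0.438 in low-dose and 0.293 in high-dose larvae (log2 difference -0.58, exact permutation p = 0.1, adjusted p = 0.315). The ratio of c to a overlapped there. Ratios of other miRNAs to a were not examined, and in CPM 41.1% of all tested miRNAs were without overlap between doses at 24 h.

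Group means of the ratio of c to a lay between 0.584 and 0.721, or -0.78 and -0.47 on the log2 scale, a narrower span than for b or d. Averaged over times the ratio of c to a was lower at the high dose, with a log2 difference of -0.14 (exact stratified permutation p = 0.055), and averaged over doses it was higher at 24 h by 0.17 (exact stratified permutation p = 0.025). Both had an adjusted p of 0.315 and did not pass, and none of the 18 tests did. Tests of 3 against 3 libraries have a smallest p of 0.1 and could not have passed, so their failure says nothing about the ratios. Stratified tests have a smallest p of 0.005 before adjustment over the 18 tests, which leaves little room to pass. The ratio of b to a differed by -0.16 between doses over both times (exact permutation p = 0.355) and by 0.03 between times over both doses (p = 0.84). From 6 h to 24 h at the low dose it differed by 0.45 (exact permutation p = 0.1), from 1.43 to 1.56 up to 1.79 to 2.09, without overlap. At the high dose it differed by -0.38 (exact permutation p = 0.2), and the libraries overlapped, with 1.54 to 1.97 at 6 h and 1.27 to 1.57 at 24 h. At the low dose after 6 h the ratio of d to a spread from -2.14 in replicate 2 to -1.09 on the log2 scale, the widest of the group ranges.

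**Figure D4:**
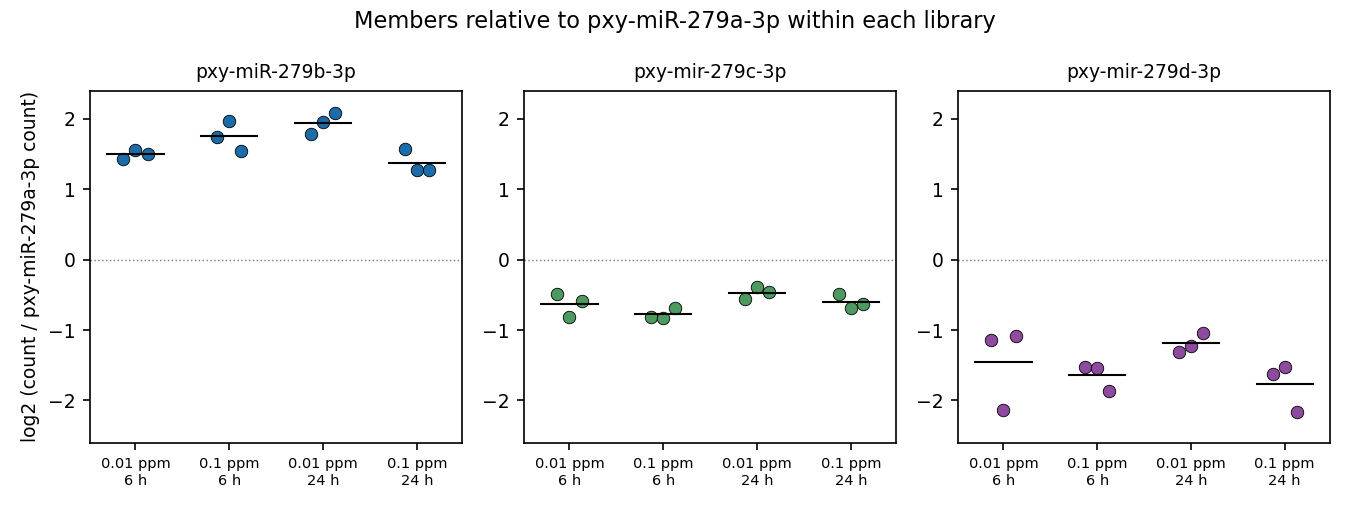
Log2 ratio of the counts of copies b, c and d to those of pxy-miR-279a-3p within each library (y axis), by dose and time group (x axis). Points are replicates 1 to 3 from left to right and lines are group means; at 24 h the ratio of b to a is 1.79 to 2.09 in low-dose and 1.27 to 1.57 in high-dose libraries.

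The rows behind each name were distributed differently among the copies. What sets the rows of a name apart is not stated, so rows of different libraries are matched here by rank alone. Copy b rested almost entirely on its most abundant row, which held 97.3% to 100% of its counts. Copy a was split, with 49.4% to 64.8% in its most abundant row and 24.9% to 36.9% in the second. For d the most abundant row held 71.9% to 100%, the upper end being low-dose replicate 2 at 6 h with its single row.

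The counts of copy c were split differently among its rows in the low-dose libraries at 6 h and at 24 h. Its second row had 0.465 to 0.524 counts for each count of the first in the low-dose libraries at 6 h, and 0.191 to 0.246 in the low-dose libraries at 24 h. At the high dose these ratios were 0.371 to 0.413 at 6 h and 0.259 to 0.562 at 24 h, where the replicates were far apart. With the most abundant row alone, c was at 0.06 between doses at 6 h and at 0.29 from 6 h to 24 h at the low dose, against -0.22 and -0.02 with all rows. None of these 4 values passed in edgeR. Shares of rows were not tested, and rows of miRNAs outside the family were not examined. Depth was also higher at 24 h than at 6 h at the low dose.

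**Figure D5:**
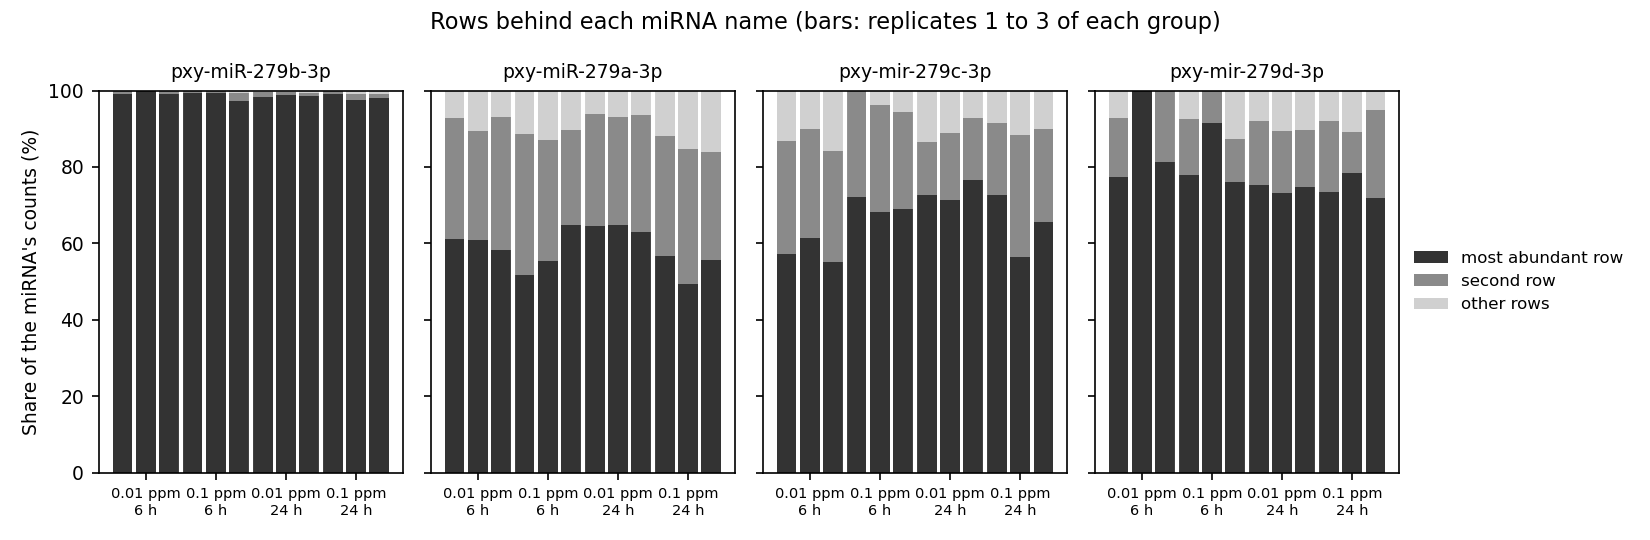
Share of each miRNA's counts (y axis, %) held by its most abundant row, its second row and its other rows, in the 12 libraries (x axis, replicates 1 to 3 of each group from left to right). Copy b has nearly all counts in its most abundant row, 97.3% or more, and copy c has a smaller second row at the low dose after 24 h than after 6 h.

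The copies also differed in how steady they were. The SD of log2 CPM over the 12 libraries was 0.13 for a and 0.17 for c, the 5th and 7th smallest of 73 miRNAs, against 0.28 for b, 0.36 for d and a median of 0.35. These SDs include counting error, which is larger for miRNAs with few counts. By mean share a and c ranked 19th and 22nd of all 105 names, and the SD of d includes the library with 28 counts. Likeness of pattern was measured as the root mean square difference of log2 CPM over the 12 libraries after centring each miRNA on its own mean. The miRNAs nearest to a were pxy-miR-306-5p (0.09), pxy-mir-31-5p (0.09) and pxy-mir-276-3p (0.12), and those nearest to c were pxy-miR-306-5p (0.09), pxy-mir-278-3p (0.12) and pxy-mir-276-3p (0.13). Nearest to b were pxy-miR-281-5p (0.17), pxy-mir-970-3p (0.21) and pxy-miR-263a-5p (0.22). Nearest to d were pxy-mir-92b-3p (0.23), pxy-miR-2a-3p (0.25) and pxy-mir-71-3p (0.26). No copy was among the 3 nearest to another copy, though a and c both had pxy-miR-306-5p and pxy-mir-276-3p among theirs. Distances between copies are not given, so this does not mean that no copies were alike. Median distances to all other tested miRNAs were 0.37 for a, 0.42 for b, 0.35 for c and 0.50 for d, and small distances are easier to reach for steady miRNAs.

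Other families known from sensory organ or neuron development in *Drosophila* were read beside the miR-279 copies. Of 9 listed names of the miR-9, miR-79, miR-263 and miR-276 families, 5 had enough counts to be tested, and names of miR-7, miR-8, miR-124 and miR-219 were not listed. At the high dose averaged over times 1 of the 5 fell, pxy-miR-9b-5p (-0.27 ± 0.09, adjusted p = 0.0351, edgeR), beside 9.59% of all tested miRNAs called lower. The list's median was -0.08, beside -0.04 over all tested miRNAs. At 24 h 1 of the 5 fell between doses, pxy-miR-263a-5p (-0.47 ± 0.14, adjusted p = 0.0218, edgeR), again beside 9.59%. The other 4 did not pass in edgeR, with pxy-miR-9b-3p at 1.07, pxy-miR-9a-5p at 0.09, pxy-mir-276-3p at -0.003 and pxy-miR-9b-5p at -0.27, and the list's median was -0.003, beside -0.16 over all tested miRNAs. Between times, averaged over doses, pxy-miR-9b-5p fell (-0.36 ± 0.09, adjusted p = 0.00776, edgeR). There 11% of all tested miRNAs were called in either direction, most of them higher. In that comparison pxy-miR-263a-5p (-0.28, adjusted p = 0.0716), pxy-miR-9a-5p (-0.15, adjusted p = 0.263) and pxy-mir-276-3p (0.002, adjusted p = 0.987) did not pass in edgeR.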

How the data were processed

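Small RNA was sequenced from total RNA of whole larvae with a TruSeq small RNA kit on an Illumina HiSeq, per the labels' protocols. The deposited files hold raw counts, per the file headers, with several rows per miRNA name. The sources used here name no aligner, miRNA reference or row filter. No name was blank. All rows of a name were added up. A name that a library does not list entered the fits, and the shares of all tested miRNAs without overlap, as 0. How reads that match several copies of a family were assigned is not stated, so values of copies a to d are uncertain to that extent.

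The whole table of 105 names went through edgeR 4.0.16 (R 4.3.3). Names were kept by filterByExpr with a minimum count of 10, scaled by TMM and fitted by quasi-likelihood, with 1 mean for each of the 4 groups of 3. P-values of the 73 tested names were adjusted by Benjamini-Hochberg, with a threshold of 0.05. There were 7 comparisons. Of the 5 members 4 passed the filter. SEs are the log2 fold change over the square root of F. Ratios of members were compared by exact two-sided permutation tests, stratified for averages (400 regroupings, smallest p 0.005). The script was tested on simulated counts. Alternatives included DESeq2 1.42.0, other scalings and filters, the highest row, a row floor that rises with depth (5 to 19.2 counts), a replicate block and each library left out.

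The text names all members, plus the 3 nearest in pattern and up to 4 of the sensory list in the averaged comparisons; the sensory names at 24 h were added after their values were seen. Members, lists and tests were chosen with earlier results of these data known. Total counts limit precision: the family has 583 to 2275 counts per library. The labels name no molecular identifiers, and PCR reads without them are not independent molecules. The labels call the replicates biological.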

Additional observations from a re-analysis of the deposited data

Results flagged for a closer look

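The effect of dose on pxy-miR-279b-3p differed between the 2 times. Its log2 fold change between high and low dose was 0.19 ± 0.12 SE at 6 h and -0.65 ± 0.11 at 24 h, and the interaction contrast was -0.84 ± 0.16 (adjusted p = 0.00206, edgeR, 12 libraries). The ratio of b to a within libraries, which no scaling touches, differed between doses by 0.26 at 6 h and by -0.57 at 24 h on the log2 scale, and the difference of these 2 values was not tested. With upper quartile factors the contrast did not pass (-0.64, adjusted p = 0.0716, edgeR). Its value was -0.76 in DESeq2 and -0.50 with library totals. Depth moved with time: libraries held 10714 to 30676 counts at 6 h and 28682 to 41214 at 24 h. With the row floor raised in step with depth the contrast was -0.75 (adjusted p = 0.00499, edgeR). Copy b had 97.3% or more of its counts in its most abundant row, so this floor could hardly change its counts. It is therefore no test of an effect of depth on b.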

How the results depend on the processing

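Of the counts of members called, that for dose over both times (1) was 0 in DESeq2, with upper quartile factors and with the relative row floor, and 0 to 1 with 1 library left out. The count at 24 h (2) was 1 in DESeq2, with library totals, with the highest single row and with the relative row floor, 0 with upper quartile factors, and 1 to 2 with 1 library left out. Those between times at the high dose (1) and for the difference of dose effects (1) were 0 with upper quartile factors and 1 in each of the 12 fits without 1 library. The median of all miRNAs moved with this scaling; other causes were not tested. Counting the highest single row moved the mean share of family counts to 70.1% for b, 13.5% for a and 9.91% for c.

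Signs changed for values that had not passed. For a between doses at 24 h they became 0.031 in DESeq2 and 0.030 with RLE factors, 0.070 with at least 10 counts in every library, 0.14 with library totals, 0.31 with upper quartile factors, 0.088 with the relative row floor, 0.025 with only the libraries of the comparison, and -0.066 to 0.12 with 1 library left out. For a over both times they became 0.21 with upper quartile factors and 0.021 with the relative row floor (-0.11 to 0.045 with 1 library left out), and at 6 h 0.12 with upper quartile factors (-0.19 to 0.041). The difference of dose effects of a became 0.067 in DESeq2 and 0.068 with RLE factors, 0.33 with library totals, 0.18 with upper quartile factors, 0.078 with no filter, 0.14 with at least 10 counts in every library and 0.13 with the relative row floor (-0.022 to 0.16). Upper quartile factors also gave 0.010 for a between times at the high dose and 0.051 for b between doses over both times.

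For c, upper quartile factors gave 0.071 between doses over both times, 0.18 at 24 h, 0.067 between times over both doses and 0.17 at the high dose, and library totals 0.015 between doses at 24 h and 0.15 between times at the high dose. With at least 10 counts in every library c was 0.0046 between times over both doses and 0.093 at the high dose, and with only the libraries of the comparison 0.020. With the highest single row c was 0.065 between doses at 6 h, 0.14 between times over both doses, 0.29 at the low dose and -0.31 for the difference of dose effects, and its ratio to a was 0.069 between doses over both times and 0.20 at 6 h. With 1 library left out c ranged from -0.13 to 0.012 between times over both doses, -0.13 to 0.13 at the high dose and -0.0019 to 0.25 for the difference of dose effects. For d that difference was 0.089 with library totals. Its ratio to a with the highest single row was -0.10 between times over both doses and -0.029 at the low dose. It ranged from -0.10 to 0.17, -0.073 to 0.45 and, at the high dose, -0.26 to 0.070 with 1 library left out. The ratio of b to a between times over both doses ranged from -0.019 to 0.088. The log2 fold change of d between times at the low dose ranged from -0.25 to 0.040.

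Leaving out the 2 shallowest libraries together, chosen after the data were seen, changed no count of members called; a became 0.042 between doses over both times, 0.056 at 6 h and 0.028 at 24 h, and the ratio of d to a -0.071 between times over both doses and -0.073 at the low dose. The replicate block changed none of 7 counts of members called. With the block, b at 24 h was -0.65 (adjusted p = 0.00062, edgeR) and d between times at the low dose 0.0035. Labels do not say that replicate numbers pair libraries, and same-numbered libraries correlated above 0.1 in 5 of 18 pairs, so the numbers were not taken as pairs. With 28 to 167 counts of d per library, small differences of d could not be resolved.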
